A study of Caenorhabditis elegans with 6 samples.

Results

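A set of 10 genes of dense core vesicles and of neuropeptide processing were followed in coelomocytes, the scavenger cells of the body cavity of Caenorhabditis elegans, after CHE-1 had been expressed in them. The 10 genes were taken by their public names from the 21882 genes of the count table: egl-3, egl-21, sbt-1, ida-1, unc-31, pamn-1, pghm-1, hid-1, unc-108 and ric-19. Each name matched 1 row, all 10 genes had counts, and all 10 passed the filter on low counts. The CHE-1 group (3 libraries) came from L3 larvae of strain BAT2088, which carries the GFP reporter barIs177 (unc-122prom::gfp), the transgene barIs115 and the allele glp-4(bn2). In barIs115 FLAG-tagged CHE-1 is under the unc-122 promoter and ends in the unc-54 3′ UTR; a pharyngeal myo-2prom::mCherry marker comes with it. The control group (3 libraries) came from L3 larvae of strain BAT2087, which carries barIs177 and glp-4(bn2) and lacks barIs115. Both groups thus share the reporter and the temperature-sensitive allele. The parents were kept at 15 °C and the eggs moved to 25 °C, which, per the labels, leaves the larvae without a germline. GFP-positive cells were sorted from dissociated animals, and each group rests on 1 strain. The labels do not say whether libraries of a group came from separate cultures, so p-values measure the spread between these libraries, which may be technical.

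Neuropeptides and peptide hormones are made as long precursors that are cut and trimmed inside dense core vesicles and are released when these vesicles fuse with the plasma membrane. In C. elegans the convertase EGL-3 cuts precursors at pairs of basic residues, the carboxypeptidase EGL-21 removes those residues, and amidating enzymes finish the peptide's end. Coelomocytes are known at the receiving end of this pathway: they take up proteins that neurons and other cells secrete into the body cavity. CHE-1 is a zinc finger protein that turns on the genes of the ASE neurons, a pair of salt-sensing cells that also make neuropeptides.

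Levels are CPM, counts scaled to library size with TMM factors, and fold changes are CHE-1 over control. Genes count as called, risen or fallen where edgeR's quasi-likelihood test, with Benjamini-Hochberg adjustment over the 9112 tested genes, gave an adjusted p under 0.05; an adjusted p with no tool named is from that test. The libraries held 21353072 to 57860556 counts in the CHE-1 group and 23062805 to 58325279 in the control group, with 7566 to 9559 and 7006 to 11297 genes at a count above 0. The gene che-1 had 10744, 50917 and 42227 counts in the CHE-1 libraries, against 3, 0 and 1 in the control libraries, as the labels have it. The promoter donor unc-122 was at 1360 ± 187 CPM in CHE-1 and 1668 ± 391 CPM in control libraries (SD, n = 3 each) and was not called (adjusted p = 0.741). Summed CPM over 8 coelomocyte markers was 4318 to 6258 in CHE-1 and 15934 to 21389 in control libraries, with no marker at 0 throughout either group. Over 15 ASE markers it was 2038 to 2220 CPM in CHE-1 and 110.8 to 125.0 CPM in control libraries. Of the 15, 4 had no count throughout the CHE-1 group and 4 throughout the control group. Of the 9 tested, 5 were called higher and 0 lower (3.37% and 1.69% of all tested genes). The marker gcy-22 alone was at 1121 ± 31.4 CPM in CHE-1 libraries. The marker die-1 was lower in CHE-1 libraries without overlap, and was not called (adjusted p = 0.149). Over 20 markers of other neurons the sum was 12.4 to 76.2 CPM in CHE-1 and 24.3 to 53.6 CPM in control libraries. In those groups 9 and 3 of the 20 were at a count of 0 throughout. Over 15 pan-neuronal genes other than the members the sum was 3097 to 3271 CPM in CHE-1 and 1481 to 1786 CPM in control libraries. These genes went in both directions: 6 were called higher, 1 lower (rgef-1, log2 fold change -1.42, adjusted p = 0.00677) and 8 were not called. The gene ric-4 alone was at 845.1 ± 64.4 CPM in CHE-1 and 16.4 ± 3.60 CPM in control libraries. Body wall muscle markers went in both directions. The transgene barIs115 also carries the 3′ UTR of the myosin gene unc-54. The gene unc-54 was at 15170 to 22777 CPM in CHE-1 and 34911 to 37108 CPM in control libraries, which lack barIs115. Means of myo-3 and unc-15 were far lower, at 143.4 and 526.7 CPM in CHE-1 and 87.8 and 377.2 CPM in control libraries. The source of the unc-54 counts was not tested. The 9 other muscle markers summed to 5813 to 7098 CPM in CHE-1 and 3626 to 4669 CPM in control libraries. Most of that sum was act-4, with means of 3294 CPM in CHE-1 and 2715 CPM in control libraries, without a call. Of the 9, mup-2 and lev-11 alone were called, both higher (log2 fold changes 2.63 and 1.69). The part that these shifts in markers play in the results on the 10 genes was not tested. In sorted pools such as these, fewer cells of a type and less RNA per cell cannot be told apart.

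The 10 genes fell into those that rose steeply and those that did not pass the test. The test called 5 higher, at 22.5 to 40.9 times their mean control level: the convertase gene egl-3, the carboxypeptidase gene egl-21, the 7B2 gene sbt-1, the IA-2 gene ida-1 and the amidating hydroxylase gene pghm-1. None fell. The CAPS gene unc-31 was 38.6 times higher in its mean but was not called by edgeR. The amidating enzyme gene pamn-1 and the vesicle maturation genes hid-1, unc-108 and ric-19 were not called and overlapped between the groups. Of all tested genes 3.37% were called higher and 1.69% lower, and the median log2 fold change was 0.04, against 4.51 for the 10 genes. The groups did not overlap for 6 of the 10 genes, all higher in CHE-1 libraries, and for 23.4% of all tested genes in either direction.

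**Figure D1:**
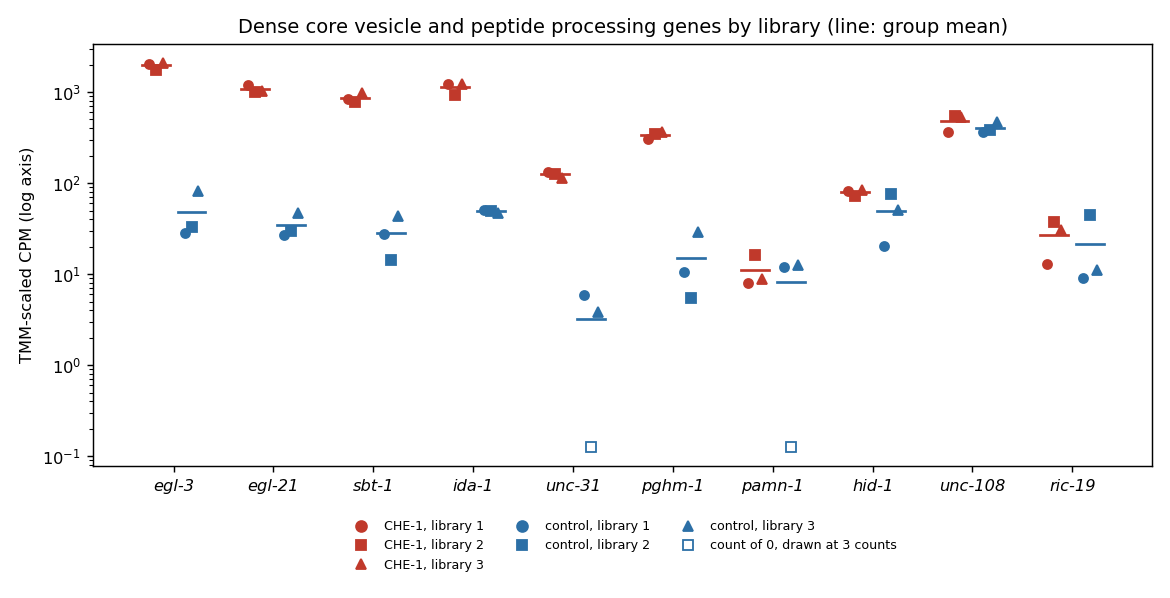
Level of each of the 10 genes in each library, in TMM-scaled CPM on a log axis, with CHE-1 libraries in red left of control libraries in blue and a line at each group's mean. The 5 called genes and unc-31 stand apart between the groups; pamn-1, hid-1, unc-108 and ric-19 overlap, and a count of 0 is drawn as an open symbol at 3 counts.

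EGL-3 is the worm's prohormone convertase of the PC2 type, and its gene (WBGene00001172) lies on the minus strand of chromosome V, 10169177 to 10173753 in WBcel235. It was at 2058, 1754 and 2075 CPM in the CHE-1 libraries, against 28.02, 33.3 and 82.6 CPM in the control libraries. The lowest CHE-1 library was far above the highest control library. On the log2 scale the difference was 5.35, with an SE of 0.46 and an adjusted p of 0.000307.

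SBT-1 is the worm's 7B2 protein, a chaperone that PC2-type convertases need for their activity. The gene sbt-1 (WBGene00011392, chromosome V, 20827715 to 20828881, minus strand) was at 830.7, 778.9 and 978.3 CPM in the CHE-1 libraries, against 27.6, 14.4 and 43.7 CPM in the control libraries. The groups did not overlap, at a log2 fold change of 4.91 with an SE of 0.40 (adjusted p = 6.18e-05). The convertase and its chaperone thus rose together. Per kb of exon, egl-3 stood at 0.65 to 0.76 times sbt-1 in the CHE-1 libraries and at 0.31 to 0.71 times sbt-1 in the control libraries.

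EGL-21 is a carboxypeptidase of the E type and acts after the convertase. Its gene (WBGene00001189, chromosome IV, 10478442 to 10481844, minus strand) was at 1198, 1003 and 1021 CPM in the CHE-1 libraries, against 26.8, 29.8 and 46.9 CPM in the control libraries. Every CHE-1 library lay above every control library, and the spread within each group was small beside the gap. The log2 fold change of 4.96 had an SE of 0.28 and the ninth smallest p among all tested genes (adjusted p = 2.16e-06).

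Of the amidating enzyme genes, pghm-1 was called and pamn-1 and pgal-1 were not; no test showed a difference between them. Amidation replaces a terminal glycine by an amide group in a hydroxylation and a cleavage. PGHM-1 is a hydroxylating monooxygenase, PGAL-1 is the lyase that cleaves, and PAMN-1 carries both activities in 1 protein. The gene pghm-1 (WBGene00022144, chromosome I, 1808092 to 1811835, plus strand) was at 305.7, 344.6 and 367.1 CPM in the CHE-1 libraries, against 10.6, 5.41 and 29.2 CPM in the control libraries. The groups were apart in all libraries, and the log2 fold change of 4.49 had an SE of 0.63 (adjusted p = 0.00556). The call was lost without CHE-1 library 1 (adjusted p = 0.0562) or control library 1 (0.108), with log2 fold changes of 4.56 and 4.21; of all tested genes 2.79% and 2.92% were called higher in those fits.

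The bifunctional gene pamn-1 (WBGene00020556, chromosome I, 5702156 to 5705553, plus strand) stayed low in both groups. It was at 7.93, 16.3 and 8.87 CPM in the CHE-1 libraries, against 11.9, 0 and 12.5 CPM in the control libraries. The groups overlapped, and the fit gave a log2 fold change of 0.44 with a 95% interval of -3.49 to 4.37 (adjusted p = 0.998). That interval holds steep falls as well as steep rises. The lyase gene pgal-1, looked at here because of its partner, was at 65.9 ± 12.4 CPM in CHE-1 and 18.97 ± 12.4 CPM in control libraries (SD, n = 3 each). Its log2 fold change of 1.79 (SE 0.59) was not called (adjusted p = 0.136), but was with adjusted deviances in edgeR (0.0111) and without a count filter (0.00657), which called 3.67% of its tested genes higher.

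IDA-1 is the worm's IA-2 protein, a tyrosine phosphatase-like protein that spans the dense core vesicle membrane. The gene ida-1 (WBGene00002048, chromosome III, 5755539 to 5765816, plus strand) was at 1218, 919.3 and 1241 CPM in the CHE-1 libraries, against 50.6, 49.9 and 46.4 CPM in the control libraries. Its control libraries lay close together, with an SD of 2.22 around a mean of 49.0 CPM. The log2 fold change of 4.52 had an SE of 0.22 and the eighth smallest p of all tested genes (adjusted p = 5.72e-07).

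UNC-31 is the worm's CAPS protein, which primes dense core vesicles for release. The gene unc-31 (WBGene00006767, chromosome IV, 12773867 to 12788354, plus strand) had 2958, 7879 and 6004 counts in the CHE-1 libraries, against 300, 0 and 204 in the control libraries. In CPM this was 134.0, 125.1 and 114.5 in the CHE-1 libraries, against 5.89, 0 and 3.80 in the control libraries. A count of 0 in control library 2 allows up to 0.126 CPM, for counting error alone. Relative to their mean, the control libraries differed from each other by more than the CHE-1 libraries did. The log2 fold change was 5.25 with a 95% interval of 1.67 to 8.83, and edgeR's adjusted p was 0.144. The gene was called without control library 2 (log2 fold change 4.62, adjusted p = 9.45e-05), where 3.35% of tested genes were called higher. With all libraries it was called by DESeq2 (adjusted p = 3.99e-05), by edgeR with adjusted deviances (9.66e-12), by limma-voom (0.0276) and with a count filter in every library of a group (0.0450). Those fits called 7.08%, 7.63%, 5.71% and 4.78% of their tested genes higher. With the shallowest library left out of both groups its adjusted p was 0.00235, and 3.06% of tested genes were called higher.

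The genes of vesicle maturation moved little beside these. HID-1, the small GTPase RAB-2 encoded by unc-108, and the ICA69-type protein RIC-19 act near the Golgi, where dense core vesicles form and mature. The gene unc-108 (WBGene00006833, chromosome I, 3822883 to 3826514, plus strand) was at 365.1, 544.3 and 537.9 CPM in the CHE-1 libraries, against 360.3, 381.1 and 473.4 CPM in the control libraries. It was abundant in every library, and the groups overlapped. Its log2 fold change of 0.25 had a 95% interval of -0.23 to 0.74 (adjusted p = 0.881), which does not reach the fold of any called member.

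The gene hid-1 (WBGene00001844, chromosome X, 2489048 to 2494339, plus strand) was at 82.1, 72.8 and 84.4 CPM in the CHE-1 libraries, against 20.1, 75.3 and 51.2 CPM in the control libraries. The spread lay in the control group, whose library 2 was above the lowest CHE-1 library. The log2 fold change was 0.71 with a 95% interval of -0.26 to 1.67 (adjusted p = 0.643). The gene ric-19 (WBGene00004368, chromosome I, 3778089 to 3781690, minus strand) was at 12.96, 37.5 and 30.3 CPM in the CHE-1 libraries, against 9.09, 44.6 and 11.1 CPM in the control libraries. Its highest library was a control library, and its log2 fold change of 0.32 had a 95% interval of -1.29 to 1.92 (adjusted p = 0.998).

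**Figure D2:**
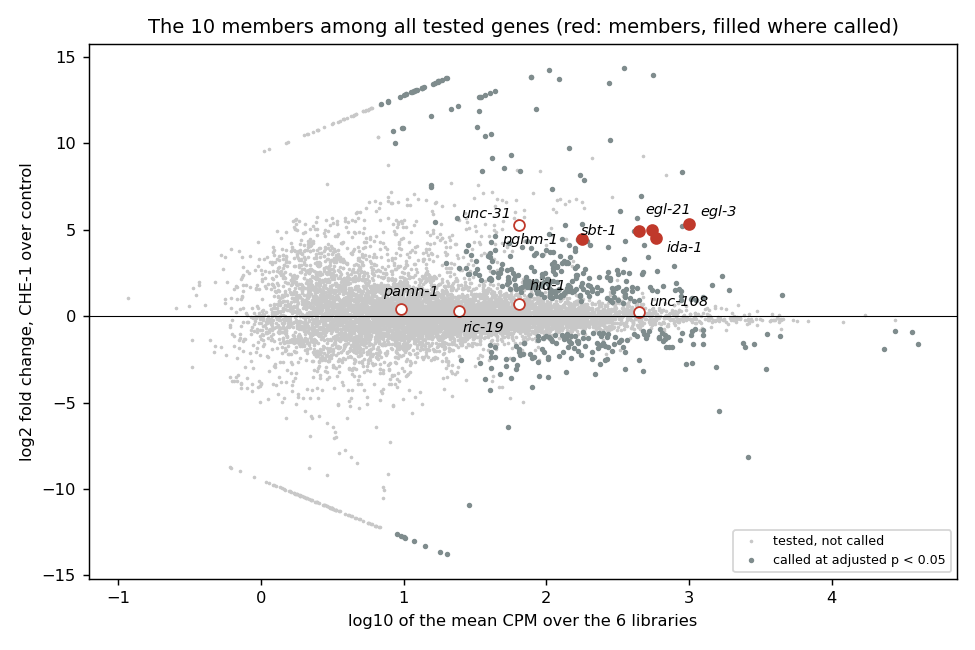
Log2 fold change of CHE-1 over control against the log10 of the mean CPM over the 6 libraries for the 9112 tested genes, with the 10 members as red circles, filled where called. The 5 called members and unc-31 lie between 4.49 and 5.35 on the vertical axis, and pamn-1, hid-1, unc-108 and ric-19 lie between 0.25 and 0.71.

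Levels of different genes were compared per kb of annotated exon. In the CHE-1 libraries sbt-1 was the highest of the 10 genes at 1091 ± 131 CPM per kb, followed by egl-3 at 765.1 ± 70.4 and egl-21 at 633.4 ± 63.4 (SD, n = 3). Over the 3 libraries the ranges of egl-3 and egl-21 overlapped, but within every library sbt-1 was above egl-3 and egl-3 above egl-21, by 1.14 to 1.34 times. The gene ida-1 at 434.6 ± 69.2 CPM per kb and unc-108 at 422.1 ± 89.0 did not differ beyond their spread, and pghm-1 followed at 290.4 ± 26.6. Much lower were hid-1 at 31.6 ± 2.43, unc-31 at 23.8 ± 1.87, ric-19 at 18.2 ± 8.52 and pamn-1 at 5.53 ± 2.30 CPM per kb, of which unc-31 and ric-19 overlapped.

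The order was another in the control libraries. There unc-108 stood alone at the top with 354.3 ± 52.7 CPM per kb (SD, n = 3). Next came sbt-1 at 36.1 ± 18.5, egl-21 at 20.3 ± 6.38, hid-1 at 19.4 ± 10.98, ida-1 at 18.9 ± 0.857, egl-3 at 18.7 ± 11.7, ric-19 at 14.6 ± 13.5 and pghm-1 at 12.9 ± 10.7 CPM per kb. The ranges of these 7 genes overlapped. Within every control library sbt-1 was nevertheless above egl-3, and egl-21 above pghm-1, while egl-3 was above egl-21 in library 3 and below it in the other two. The lowest were pamn-1 at 4.08 ± 3.53 and unc-31 at 0.617 ± 0.570 CPM per kb.

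Set among all tested genes by level per kb, egl-3 stood at the 98.3rd percentile in CHE-1 and at the 63.8th in control libraries. The gene sbt-1 stood at the 98.7th in CHE-1 and the 77.7th in control libraries, and pghm-1 at the 96.4th and the 53.99th in the same groups. The gene unc-31 stood at the 67.2nd percentile in CHE-1 and the 7.24th in control libraries. By contrast unc-108 held the 97.3rd percentile in CHE-1 and the 97.1st in control libraries. Together the 5 called genes took 5364 ± 490 CPM in CHE-1 and 175.1 ± 64.03 CPM in control libraries (SD, n = 3 each).

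**Figure D3:**
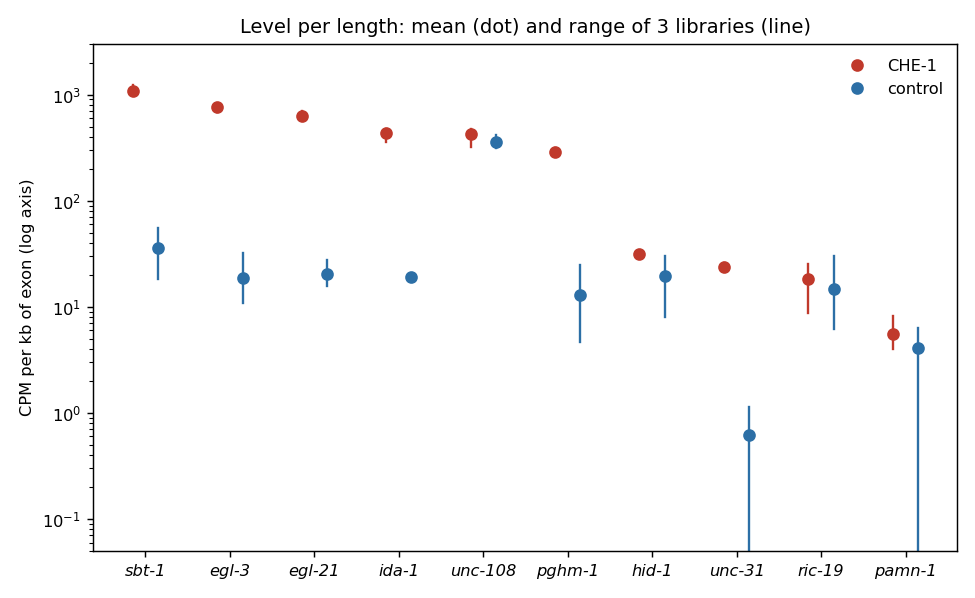
CPM per kb of exon on a log axis for each of the 10 genes, ordered by the CHE-1 mean, with CHE-1 in red left of control in blue; dots are means and lines the range of the 3 libraries. Lines that run off the bottom of the axis reach 0, in control library 2 of unc-31 and pamn-1.

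Neighbouring enzymes of the same steps were set beside the members. KPC-1, BLI-4 and AEX-5 are the other kexin-type convertases, of which BLI-4 is known for its part in the cuticle, and CPD-1 and CPD-2 are carboxypeptidases of the D type. Of these and pgal-1, 6 genes in all, 5 were tested. In edgeR 0 were called, with 2 at an unadjusted p under 0.05, while DESeq2 called 0, limma-voom called 1 lower (cpd-1) and edgeR with adjusted deviances called 1 higher (pgal-1). Of all 9112 tested genes, edgeR called 3.37% higher and 1.69% lower, with 1297 at an unadjusted p under 0.05. There limma-voom called 294 lower and edgeR with adjusted deviances 7.63% higher. With 5 genes, counts this small cannot be told from those shares. The median log2 fold change of the 5 was -0.57. The gene bli-4 was at 87.8 ± 17.2 CPM in CHE-1 and 134.4 ± 18.2 CPM in control libraries (log2 fold change -0.61, adjusted p = 0.326), and kpc-1 was at 80.9 ± 15.8 and 60.2 ± 29.4 CPM in the same groups (0.43, adjusted p = 0.922).

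These shares were defined after the values had been seen. Within each library, egl-3 took 94.2%, 93.6% and 94.99% of the summed CPM per kb of the 4 convertase genes in the CHE-1 libraries, against 15.99%, 23.8% and 40.3% in the control libraries. In the carboxypeptidase group egl-21 took 97.1%, 98.5% and 97.5% in the CHE-1 libraries, against 36.9%, 49.6% and 49.6% in the control libraries. Neither share overlapped between the groups, and each gave p = 0.1 in a two-sided exact permutation test, the smallest p that 3 against 3 libraries allow. The folds of egl-3 and egl-21 were known when these shares were chosen, so their separation and its p add no support. These shares need no scaling between libraries. The share of pghm-1 in the sum of pghm-1 and pamn-1 was 97.3% to 98.6% in CHE-1 and 60.3% to 100% in control libraries (exact permutation p = 0.4). The share of pgal-1 in the sum of pgal-1 and pamn-1 was 86.3% to 94.7% in CHE-1 and 77.5% to 100% in control libraries (exact permutation p = 0.5). The last pair of shares overlapped between the groups, and the 100% is the control library in which pamn-1 had no count. The 4 p-values adjusted over the 4 shares were 0.2, 0.2, 0.5 and 0.5.

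**Figure D4:**
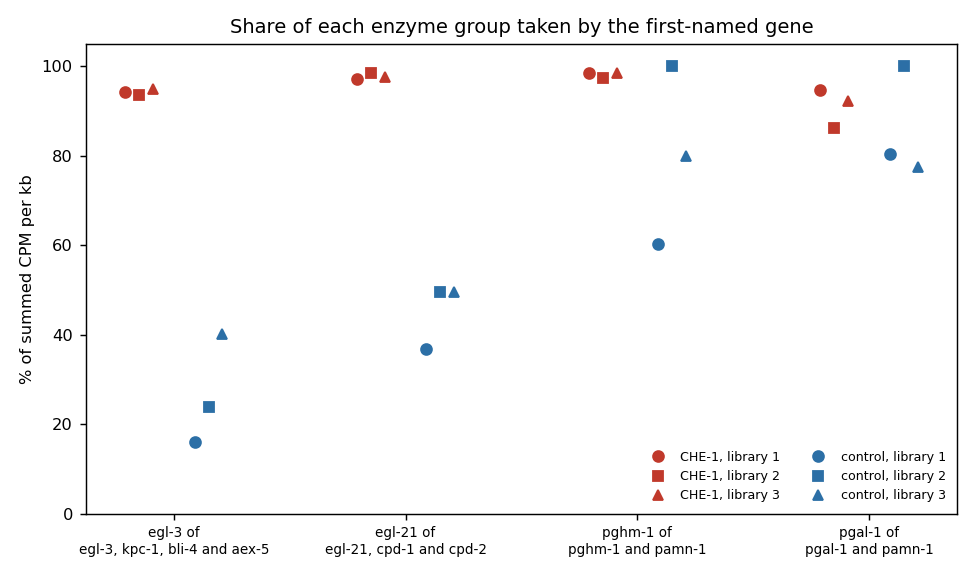
Share of the summed CPM per kb of an enzyme group that the first-named gene took in each library, with CHE-1 libraries in red left of control libraries in blue. The shares of egl-3 and egl-21 were above 93% in every CHE-1 library and below 50% in every control library, while the shares of pghm-1 and pgal-1 overlapped.

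Of other genes of dense core vesicle formation, most did not pass the test, as hid-1, unc-108 and ric-19 did not. The list of 17 holds RAB-2 partners (rund-1, cccp-1), the EARP and GARP tethering subunits vps-50 to vps-54 with eipr-1, Rab and Arl GTPases, their regulators and adaptor subunits. All 17 were tested, and 0 rose and 1 fell (3.37% and 1.69% of all tested genes). With 17 genes, counts this small cannot be told from those shares. The median log2 fold change of the list was -0.46. The gene that fell was rab-5, the early endosome GTPase, at 419.3 ± 117.8 CPM in CHE-1 and 960.1 ± 165.4 CPM in control libraries (log2 fold change -1.195 with an SE of 0.25, adjusted p = 0.0144). Its call was lost with the shallowest library left out of both groups (adjusted p = 0.0579). Endosomes are the working compartment of coelomocytes, and rab-5 is not a gene of dense core vesicles alone. The cause of its fall was not tested. The abundant members rab-6.2, apb-3 and vps-54 had log2 fold changes of 0.83, -0.22 and -0.71 and were not called (adjusted p = 0.208, 0.998 and 0.290).

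Genes of vesicle transport, capture and fusion did rise. Of 20 on the list 18 were tested, and 9 rose and 0 fell (3.37% and 1.69% of all tested genes). The median log2 fold change was 1.37, against 0.04 for all tested genes. This list holds genes that synaptic vesicles also use, and ric-4, rab-3 and others of it are pan-neuronal genes whose rise was known beforehand, so its count is not independent. The SNAP-25 gene ric-4 rose by a log2 fold change of 5.69 (adjusted p = 4.17e-07) and the Rab GTPase gene rab-3 by 5.26 (0.000219). The rabphilin gene rbf-1 was at 196.2 ± 16.5 CPM in CHE-1 and 14.8 ± 6.06 CPM in control libraries (3.74, adjusted p = 8.43e-05). The gene cab-1, whose product binds the Rab exchange factor AEX-3, was at 253.5 ± 35.98 CPM in CHE-1 and 30.4 ± 1.24 CPM in control libraries (3.06, adjusted p = 3.65e-05).

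The called genes also include a motor and a kinase. The gene of the vesicle motor UNC-104, a kinesin of the KIF1A type, was at 97.9 ± 36.01 CPM in CHE-1 and 14.5 ± 5.91 CPM in control libraries (log2 fold change 2.76, adjusted p = 0.00338). The gene of protein kinase C-1, which promotes dense core vesicle release, was at 540.0 ± 74.3 CPM in CHE-1 and 289.7 ± 65.6 CPM in control libraries (pkc-1, 0.90, adjusted p = 0.0468). That call was lost without CHE-1 library 2 or 3, without any 1 of the control libraries and with the shallowest library left out of both groups (adjusted p = 0.0584 to 0.235), and with upper quartile factors (0.0954). The kinesin heavy chain gene unc-116, the tomosyn gene tom-1 and the synaptobrevin gene snb-1 had log2 fold changes of 0.17, 0.69 and 0.29 and were not called (adjusted p = 0.922, 0.123 and 0.855).

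**Figure D5:**
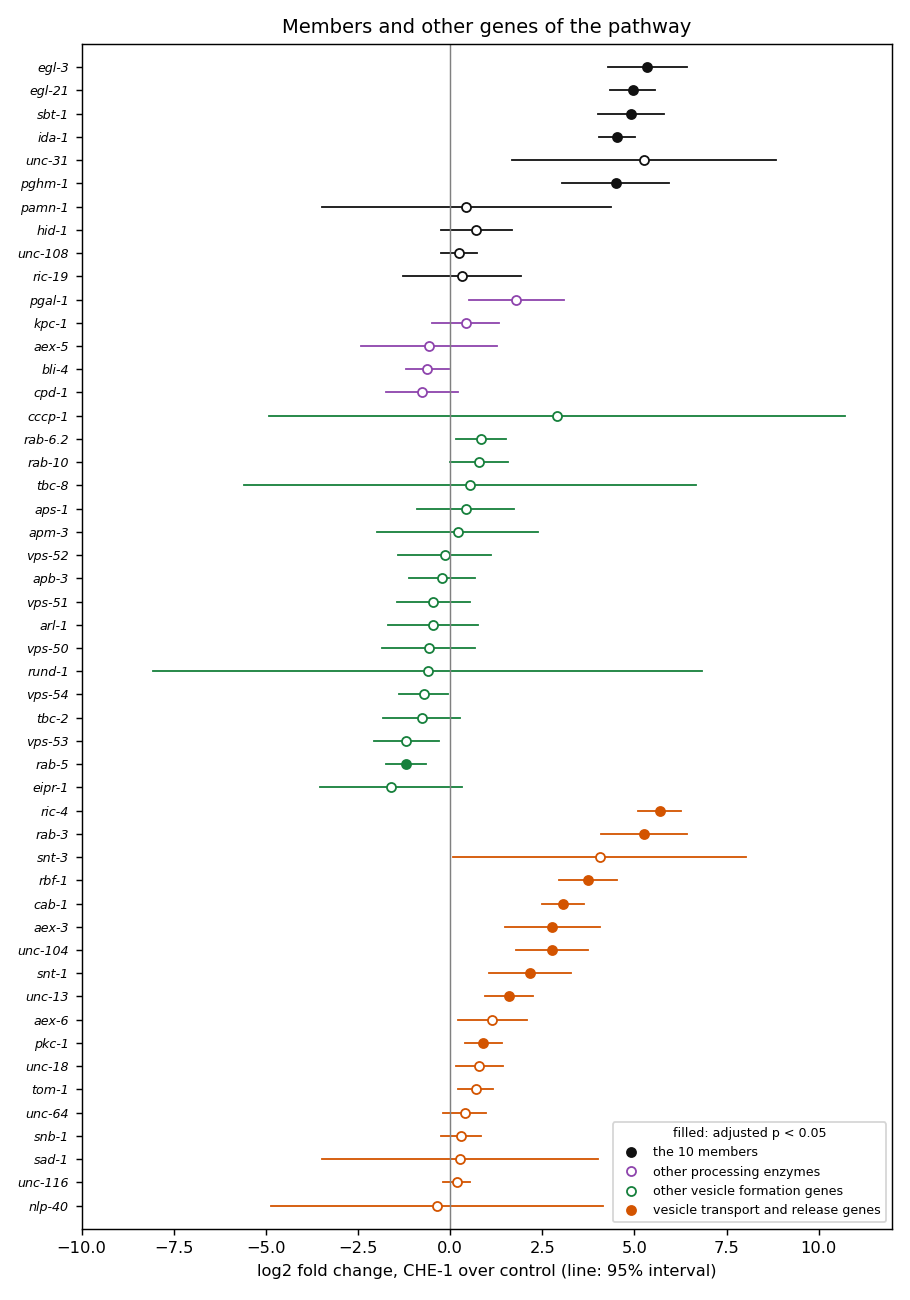
Log2 fold change of CHE-1 over control with its 95% interval for the 10 members (black) and the tested genes of 3 other lists, filled where called. The members egl-3, egl-21, sbt-1, ida-1 and pghm-1 lie between 4.49 and 5.35, and 9 transport and release genes are called higher. The other enzymes and the vesicle formation genes lie on both sides of 0, with medians of -0.57 and -0.46, and rab-5 is called lower.

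The substrates and the enzymes that destroy them were counted last. Of 144 peptide precursor genes (flp, nlp, ins and pdf genes, ntc-1 and daf-28), 76 were tested, 4 rose and 0 fell, and the median log2 fold change was 0.72. A count of 4 in 76 is near the 3.37% of all tested genes called higher, so in this fit it is not a result about precursors. Other fits called more of them higher, 13 of 79 with DESeq2 and 10 of 41 with the count filter in every library of a group. Those fits called 7.08% and 4.78% of all their tested genes higher. The 4 were nlp-60, nlp-21, flp-16 and the insulin-like gene ins-22. The gene ins-22 was at 24.7, 9.56 and 17.6 CPM in the CHE-1 libraries, against 0, 0 and 0.0373 CPM in the control libraries (adjusted p = 0.0291, lost when any CHE-1 library or control library 1 was left out, at 0.0519 to 0.122). For nlp-21 the adjusted p was 0.0595 to 0.167, no longer a call, when control library 1, control library 3 or CHE-1 library 3 was left out. The count of calls moved with the libraries, to 9 without control library 2 and 2 without CHE-1 library 3. Summed over the list, precursors took 3356 to 4699 CPM in CHE-1 and 491.8 to 749.7 CPM in control libraries, and the precursor gene flp-28 alone was at 1388 ± 308 CPM in CHE-1 and 4.73 ± 5.39 CPM in control libraries, without a call (adjusted p = 0.0833). Of 15 genes (neprilysin and dipeptidyl peptidase genes and acn-1), 14 were tested, and 1 rose and 0 fell (3.37% and 1.69% of all tested genes). With 14 genes, counts this small cannot be told from those shares. The gene that rose was nep-2, which encodes a neprilysin, a class of enzymes that cleave peptides outside the cell. It was at 202.6 ± 25.4 CPM in CHE-1 and 22.8 ± 16.4 CPM in control libraries (log2 fold change 3.16 with an SE of 0.53, adjusted p = 0.00677).

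Within the control group, the 5 called genes did not all have the same highest library. Control library 3 was highest for 4 of the 5, and this library also had the most genes with a count, 11297. For ida-1 control library 1 was highest. In the CHE-1 group library 2 was lowest for 4 of the 5, and library 1 for pghm-1. The part that depth or cells of other types played in these orders was not tested. The 20 markers of other neurons summed to 24.3, 37.7 and 53.6 CPM in control libraries 1, 2 and 3. The 15 pan-neuronal genes summed to 1786, 1481 and 1723 CPM in the same libraries.

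The genes with a profile closest to that of egl-3 over the 6 libraries, by root mean square distance of centred log2(CPM + 1) values and leaving the members out, were ctg-2, rab-3, T25B9.3, mfsd-10 and nlp-7. Their distances were 0.21 to 0.25 on the log2 scale. Of the members, egl-21 stood eleventh by this distance (0.36), sbt-1 thirteenth (0.43) and pghm-1 at place 26 (0.54) among all tested genes, with ida-1 at 62 and unc-31 at 110. The pseudocount of 1 pulls genes near 0 toward this profile: ctg-2 was at 61.4 ± 9.46 CPM in CHE-1 and 0.509 ± 0.882 CPM in control libraries and was not called (adjusted p = 0.159).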

How the data were processed

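Polyadenylated RNA of sorted coelomocytes was sequenced, paired-end and strand-specific per the series' design text, in 3 CHE-1 and 3 control libraries. The raw table that the authors deposited holds estimated counts as whole numbers. The submitters' processing notes name Salmon 0.13.1, DESeq2 and WBcel235, with no role given; the sources used here do not say how transcripts became genes or whether counting used strand. A second deposited table holds a normalized signal for 12808 of the 21882 genes, equal to the raw values over 1 factor for each library, and was not used further. A name table named 19626 identifiers, and the WBcel235 annotation placed 21714 and gave exon lengths. Of the 10 genes, sbt-1 alone shares exon bases with another gene, 29 with grl-14 on the other strand.

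The groups were compared in R 4.3.3 with edgeR 4.0.16 (glmQLFit, robust, with glmQLFTest, two-sided; TMM factors; filterByExpr with a minimum count of 10 and a minimum total of 15), fitted on the whole table. The SE of a log2 fold change is its size over the square root of F and is approximate; the 95% interval is made from it. Alternatives were DESeq2 1.42.0, limma-voom (limma 3.58.1), other factors, other filters, leaving out libraries and, added later, a replicate block. The fit was tested on simulated data. Counts of 0 were given a limit of 3 counts, for counting error only. Libraries of 1 group differed by more than sampling noise (chi-square over its degrees of freedom from 213 upward). The genes and lists were chosen with earlier results of these data known, and the shares and neighbouring genes after values were seen. Named genes are the members, che-1, unc-122, up to 4 called genes of each list by size of change, the most abundant uncalled ones and the 5 closest to egl-3. Others, among them pgal-1, cpd-1, pkc-1, unc-104 and gcy-22, were singled out after their values were seen. The listed names tbc-4, arf-1.2 and apt-6 matched no row.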

Additional observations from a re-analysis of the deposited data

How the results depend on the processing

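The direction and call of egl-3, egl-21, sbt-1 and ida-1 were the same under all 15 alternatives apart from the block described last, with log2 fold changes of 5.01 to 5.97, 4.71 to 5.22, 4.53 to 5.32 and 4.39 to 4.68. The gene pghm-1 was called under 13 of 15 (4.01 to 5.36) and unc-31 under 6 of 15 (4.57 to 7.04), and hid-1 and unc-108 were positive and uncalled under all 15. The uncalled changes of pamn-1 and ric-19 turned sign with the libraries used. Leaving out each library gave pamn-1 -0.21 to 0.84, the low end without control library 2, and -0.017 with the shallowest library left out of both groups. For ric-19 the range was -0.078 to 1.34, with -0.078 without control library 1 and -0.017 without control library 3. The cause was not tested. Upper quartile factors moved the median of all genes by -0.14 and library totals alone by 0.17 (log2), far less than the folds of the called members. Over all genes 461 were called, against 1097 with DESeq2, 814 with limma-voom, 1049 with adjusted deviances and 729 without a count filter. Other processing enzymes gave 1 call in place of 0 with limma-voom (lower), with adjusted deviances (higher) and without a count filter (higher). In those directions these fits called 294 of 9112, 695 of 9112 and 474 of 12913 tested genes. Vesicle formation genes gave 2 calls with DESeq2 and 0 with the shallowest library left out of both groups, in place of 1. Both DESeq2 calls were lower, and DESeq2 called 412 of 9675 tested genes lower. Vesicle transport and release genes gave 6 to 10 calls in place of 9, all higher. The 6 came without control library 3, without CHE-1 library 3 or with the shallowest library left out of both groups. In those fits 280 of 9418, 239 of 10189 and 311 of 10168 tested genes were called higher. The 10 came with DESeq2 and with adjusted deviances, where 7.08% and 7.63% of all tested genes were called higher. Peptide precursors gave 14 calls of 79 tested with DESeq2 (13 higher), 14 of 76 with adjusted deviances and 10 of 76 with limma-voom, in place of 4. Those fits called 7.08%, 7.63% and 5.71% of all their tested genes higher. The count was 10 of 41 with the count filter in every library of a group and 8 of 88 without the shallowest libraries. There 4.78% and 3.06% of all tested genes were called higher. It was 2 to 9 when each library was left out. Using the longest transcript in place of all exons moved no level per length by more than its SD. The planned search for a promoter motif was not run. The library names run in neighbouring numbers, 1 library of each group, but no label says that neighbours share a culture or sort. Deviations of neighbouring libraries from their group means correlated at 0.0878, -0.00083 and 0.0553 over 9112 genes, none over 0.1. CHE-1 libraries 1 and 3 correlated best with their neighbours, and CHE-1 library 2 with another control library. With 3 libraries a group these values cannot settle pairing, and for want of a label neighbours were not taken as pairs. A fit with such a replicate block, chosen after seeing the data, called 569 genes (364 higher, 205 lower), 5 of the 10 members and, of the other processing enzymes, 1 (pgal-1, adjusted p = 0.0465); ins-22 lost its call (0.0940). With 3 libraries a group, changes of genes with 1 library at a count of 0, such as pamn-1 and unc-31, have wide intervals.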

Other observations

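The gene sbt-1 lies beside a marker of the right ASE neuron. The receptor guanylyl cyclase gene gcy-22 lies 2652 bp from sbt-1 on chromosome V, on the same strand, with grl-14 between them on the other strand. The gene gcy-22 was at 1156, 1109 and 1097 CPM in the CHE-1 libraries, against 0.118, 0 and 0.0559 CPM in the control libraries. The gene grl-14, whose end overlaps that of sbt-1 by 29 bp, had 170, 686 and 915 counts in the CHE-1 libraries and no count in the control libraries. The test of edgeR gave it an adjusted p of 0.0727, without a call, while it was called higher with adjusted deviances (0.0121), by limma-voom (0.00795) and by DESeq2 (3.84e-09). On the other side of sbt-1, num-1 had a log2 fold change of -0.54 (adjusted p = 0.962). Over the 19 nearest protein-coding neighbours of the 10 members that are in the table, 9 were tested. Of these, 0 passed in edgeR, where grl-14 and npp-11 (2 genes) were at an unadjusted p under 0.05. Over all 9112 tested genes edgeR called 461, and 1297 were at an unadjusted p under 0.05. The 3 other tests just named each called grl-14 alone. Adjusted deviances, limma-voom and DESeq2 called 7.63%, 5.71% and 7.08% of all their tested genes higher.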
